A study of Homo sapiens with 12 samples.

Results

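Amino acid transporters move amino acids across the plasma membrane, and 8 of their genes were followed here through quinacrine (QC) treatment of ovarian cancer (OC) cells. The genes are SLC7A11, SLC7A5, SLC3A2, SLC1A5, SLC38A2, SLC7A1, SLC1A4 and SLC38A1, taken by name from a table of 60669 gene identifiers. All 8 had enough counts to be tested, among 18720 genes that passed the expression filter. The data are RNA-seq counts from 6 established OC cell lines that form 3 isogenic pairs, with 1 library for each line and treatment and 12 libraries in all. HeyA8, SKOV3 and OV2008 were the chemotherapy-sensitive lines. HeyA8-MDR (described by the study as carboplatin-resistant), SKOV3-TR (taxol-resistant) and C13 (cisplatin-resistant and derived from OV2008) were the resistant lines. Each line received 8 µM QC, an antimalarial drug, or vehicle, for 6 h, so the 4 groups are sensitive lines with vehicle, sensitive lines with QC, resistant lines with vehicle and resistant lines with QC, each of 3 lines. The replicate in every test is the cell line and no culture was repeated, so line and culture cannot be told apart. The HeyA8 pair was grown in DMEM and the other lines in RPMI-1640, media that differ in amino acid content, so medium and family cannot be told apart either.

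Several of these transporters work as pairs or in series. SLC3A2 (the CD98 heavy chain, 4F2hc) is a glycoprotein that carries light chains to the plasma membrane: with SLC7A5 it forms LAT1, which exchanges large neutral amino acids such as leucine, and with SLC7A11 it forms system xc-, which takes up cystine for glutathione synthesis in exchange for glutamate. SLC1A5 (ASCT2) and SLC1A4 (ASCT1) exchange small neutral amino acids, among them glutamine for SLC1A5 and serine and alanine for SLC1A4. SLC38A1 (SNAT1) and SLC38A2 (SNAT2) bring in glutamine and other neutral amino acids together with sodium, and SLC7A1 (CAT1) takes up arginine and lysine. Many of them are known targets of ATF4, the transcription factor of the amino acid response, which binds C/EBP-ATF response elements (CARE). SLC7A11 is also a target of NRF2, and MYC is known to act on SLC7A5 and SLC1A5. Cancer cells often carry high levels of SLC7A5, SLC3A2, SLC1A5 and SLC7A11.

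The genes lie at chr4:138164097-138242349 (SLC7A11), chr16:87830023-87869507 (SLC7A5), chr11:62856109-62888860 (SLC3A2), chr19:46774883-46788594 (SLC1A5), chr12:46358188-46372773 (SLC38A2), chr13:29509414-29595688 (SLC7A1), chr2:64988479-65023865 (SLC1A4) and chr12:46183063-46269043 (SLC38A1) in RefSeq on GRCh38.p14. Promoter windows from 250 bases before to 50 bases after annotated starts were available for 7 of the 8 genes (13 windows), SLC7A11 being the gene without one. These windows were searched on both strands for the CARE letters TGATGNAA, the antioxidant response element (ARE, bound by NRF2) letters TGACNNNGC and the E-box CACGTG, and the letter patterns do not overlap each other in the matches found. The CARE letters stood in a window of 5 of the 7 genes, against 4.46% of all genes. By window they stood in 5 of 13, against 3.62% of all 35116 windows of that length. The 7 genes had more windows each than the 27305 genes behind those 35116 windows, so shares by gene are not like for like. The ARE letters stood in a window of 4 genes (SLC3A2, SLC7A1, SLC7A5 and SLC1A5), against 16.1% of genes, and in 4 of 13 windows, against 13.3%. The E-box stood in a window of 2 genes (SLC7A5 and SLC1A5), against 8.77% of genes, and in 2 of 13 windows, against 7.26%. A match is a string of letters, not a shown binding site.

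The 5 CARE matches are printed because ATF4 and its targets are described beside the transporters further on. Each line is read 5′ to 3′ on the gene's strand, with the match in capitals. Positions are counted from the annotated start of the window, which is position 1 and is preceded by position -1, and the matches of SLC1A4 and SLC3A2 run in the reverse orientation.
SLC1A4, chr2:64989382-64989409 (+), match starting at position -7 from an annotated start inside the gene: cggctcccgtTTGCATCAtctccagccg
SLC38A1, chr12:46266503-46266530 (-), match starting at position -4 from an annotated start inside the gene: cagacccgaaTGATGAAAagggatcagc
SLC1A5, chr19:46784894-46784921 (-), match starting at position -97 from an annotated start inside the gene: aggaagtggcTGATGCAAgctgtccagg
SLC7A1, chr13:29595664-29595691 (-), match starting at position 8 from the gene's outer start: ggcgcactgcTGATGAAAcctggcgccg
SLC3A2, chr11:62881726-62881748 (+), match starting at position 38 from an annotated start inside the gene: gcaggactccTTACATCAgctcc

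The E-box matches of the genes that MYC is known to act on are printed in the same way.
SLC7A5, chr16:87869622-87869647 (-), match starting at position -130 from the gene's outer start: ccggacgacgCACGTGctccgagctg
SLC1A5, chr19:46787328-46787353 (-), match starting at position -50 from an annotated start inside the gene: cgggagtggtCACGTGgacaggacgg

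Depth ran from 17782556 to 30585059 counts a library, and a transporter held between 135 and 99934 counts in a library. Levels are given as CPM, the counts scaled to library size with TMM factors. The keratins KRT8 and KRT18 were found in all 6 lines. EPCAM, a further epithelial marker, was not. With vehicle it stood at 0.052 CPM in HeyA8-MDR, 2.9 CPM in HeyA8 and 3.07 CPM in SKOV3-TR. It was at 52.4 CPM in SKOV3, 219 CPM in OV2008 and 204.7 CPM in C13. PAX8, a marker of Mullerian epithelium, lay between 324.6 and 479.6 CPM in the vehicle libraries of the HeyA8 and SKOV3 pairs but at 7.56 CPM in OV2008 and 19.6 CPM in C13. SOX17 was at 0 in OV2008 and C13, where KRT5, a keratin of squamous epithelium, reached 11210 and 3060 CPM. These lines thus went against PAX8 and SOX17. The other ovarian markers did not set them apart. WT1 was at 4.79 CPM or less in each line with vehicle. MUC16 and FOLR1 were highest in SKOV3 (10.9 and 22.0 CPM) and at 2.35 CPM or less in the other lines. Leukocyte markers summed to 2.42 CPM at most. The HeyA8 library with QC stood apart from the other QC libraries: over 37 genes at least 8-fold higher in HeyA8-MDR than in HeyA8 with vehicle, it lay a median 66.2% of the way, on the log2 scale, from the HeyA8 to the HeyA8-MDR vehicle level. Over 79 genes at least 8-fold lower in HeyA8-MDR it lay 23.4% of the way, and in the other lines the same measure lay between -0.54% and 16.6%. Whether this library holds RNA of HeyA8-MDR cells was not tested, and every HeyA8 value with QC carries that doubt. The fitted difference of each transporter over all lines and the counts of each gene list are therefore also given without HeyA8, that is, without its vehicle and QC libraries.

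Where genes are compared, levels are given per kilobase of the reference transcript. With vehicle, SLC7A5 and SLC3A2 were the highest transporters per kilobase in each of the 6 lines, at 427 ± 420 and 397 ± 249.8 CPM per kb (SD, n = 6 lines). They were followed by SLC1A5 (90.8 ± 36.9), SLC38A2 (81.2 ± 37.8), SLC38A1 (54.3 ± 31.2), SLC7A1 (44.9 ± 21.9), SLC7A11 (21.1 ± 23.1) and SLC1A4 (10.03 ± 3.27), all in CPM per kb. SLC7A5 and SLC3A2 did not differ beyond their spread over lines, and neither did any neighbours from SLC1A5 down to SLC1A4, but SLC3A2 (157.4 CPM per kb or more) and SLC1A5 (149.6 CPM per kb or less) did not overlap. Lines differed most in SLC7A11, from 7.01 CPM in HeyA8-MDR to 633.8 CPM in SKOV3, whereas SLC1A4 ranged from 20.8 CPM in C13 to 62.0 CPM in HeyA8.

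**Figure D1:**
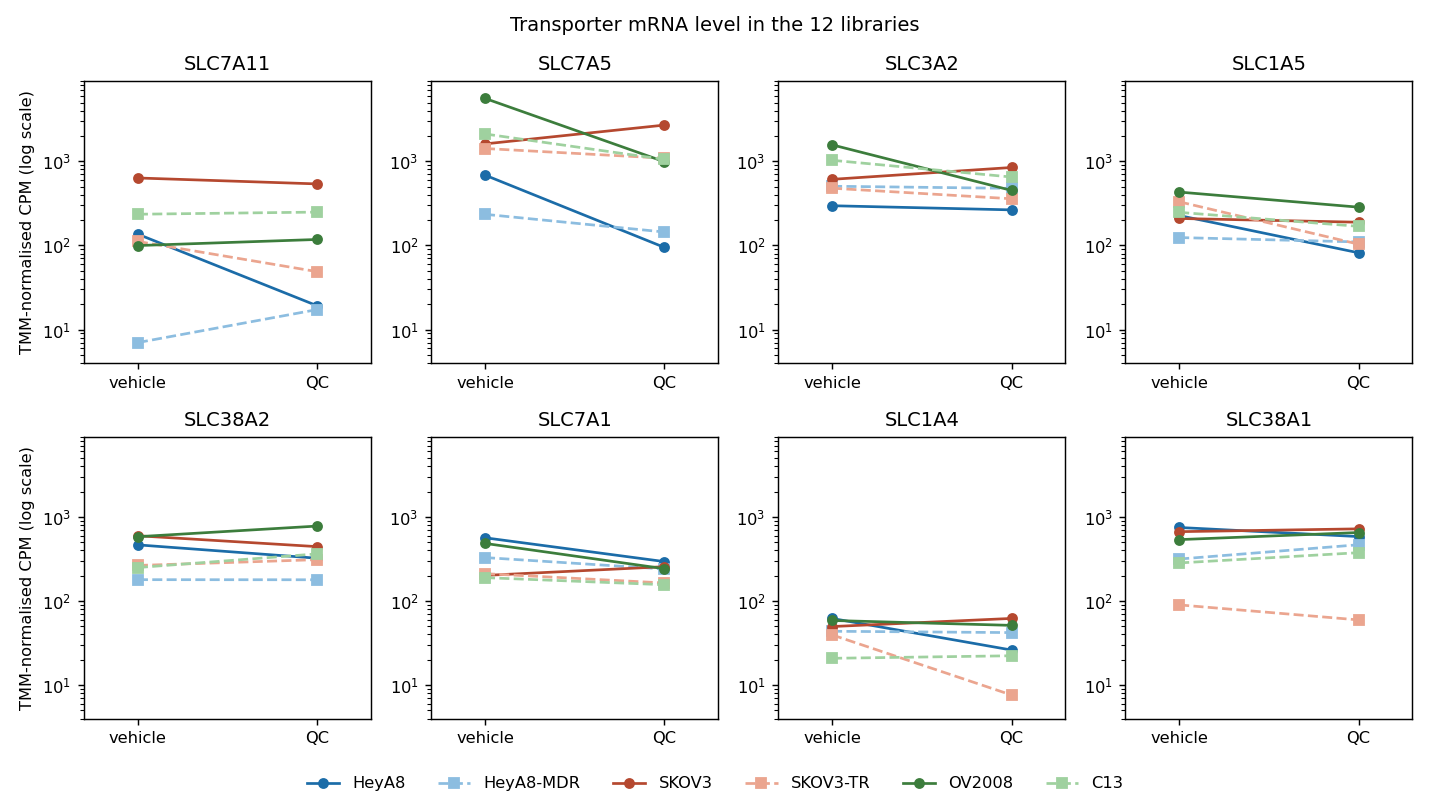
Level of each transporter in the 12 libraries, as TMM-normalised CPM on a log axis, with vehicle at the left and QC at the right of each panel. Circles with solid lines are sensitive lines and squares with dashed lines are resistant lines, 1 library per point. SLC7A5 lies lower with QC in HeyA8 (685.7 and 94.7 CPM) and OV2008 (5597 and 988.5 CPM), whereas in SKOV3 it lies higher.

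Over all 6 lines, SLC1A5, SLC7A5 and SLC7A1 mRNA were lower with QC. In bulk libraries, fewer expressing cells and less RNA per cell cannot be told apart. In a fit with a term for each line, these 3 of the 8 transporters had an unadjusted p under 0.05 and a lower level with QC, against 7.18% of all genes tested in that direction, and 0 of 8 were called higher, against 7.99%. The 8 log2 differences had a median of -0.44, and the median over all genes was 0.00010. No gene of 18720 reached an adjusted p under 0.05 with edgeR's quasi-likelihood test, where 2840 had an unadjusted p under 0.05. DESeq2 gave 518 genes at an adjusted p under 0.05, SLC1A5 among them. Without HeyA8 2 of 8 transporters were called lower (SLC1A5 and SLC7A5), against 5.41% of genes. Without SKOV3 5 of 8 were called lower, against 7.63%. SKOV3 was the line in which the median transporter was higher with QC, so leaving it out favours such calls and adds no support.

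The glutamine exchanger SLC1A5 was lower with QC in 6 of 6 lines, which was the case for 4.6% of genes. It went from 226.9 to 81.8 CPM in HeyA8, from 209.3 to 188.8 CPM in SKOV3 and from 431.1 to 285.1 CPM in OV2008. In the resistant lines it went from 124.1 to 110.1 CPM in HeyA8-MDR, from 330.6 to 103.5 CPM in SKOV3-TR and from 247.5 to 168.7 CPM in C13. The decrease was largest in SKOV3-TR, to 0.313 of the vehicle level, and in HeyA8, to 0.360, and smallest in SKOV3 (0.902) and HeyA8-MDR (0.887). The fitted log2 difference over all lines was -0.77 ± 0.201 (SE, unadjusted p = 0.00242, adjusted p = 0.16 with edgeR). DESeq2 gave -0.77 with an adjusted p of 0.0212. The exact two-sided sign-flip test over the 6 line differences gave p = 0.0312, the smallest value that 6 lines allow. Among the other transporters it gave 0.0938 or more. Both this test and the fit take the 6 lines as independent, although each has an isogenic partner among them. Without HeyA8 the log2 difference was -0.62 ± 0.199 (SE, unadjusted p = 0.00847). After scaling to RPLP0, the reference gene of the study's qPCR, SLC1A5 was lower in 5 of 6 lines, with SKOV3 at a log2 difference of 0.14. It was then -1.41 in HeyA8 and -1.76 in SKOV3-TR, but -0.29 in HeyA8-MDR, -0.12 in OV2008 and -0.073 in C13.

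SLC1A4, the serine and alanine exchanger of the same family, had its lowest level with QC in SKOV3-TR, where it went from 39.6 to 7.63 CPM, or 0.193 of vehicle. It went from 62.0 to 26.1 CPM in HeyA8 and from 58.7 to 51.3 CPM in OV2008. In the other lines it stood at 43.7 and 42.1 CPM in HeyA8-MDR, at 49.7 and 62.1 CPM in SKOV3 and at 20.8 and 22.3 CPM in C13, vehicle first. SKOV3-TR and HeyA8 were thus the lines with the largest decreases of both SLC1A family members. Over all lines the log2 difference was -0.53 ± 0.294 (SE) and missed the threshold (unadjusted p = 0.0945, adjusted p = 0.409 with edgeR). It was -0.38 without HeyA8 and -0.21 without SKOV3-TR. Without SKOV3, where SLC1A4 was higher with QC, it was called, at -0.72 (unadjusted p = 0.0378 with edgeR).

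SLC7A5, the leucine-exchanging light chain, had the largest single decrease of the 8 genes. It went from 685.7 to 94.7 CPM in HeyA8 (0.138 of vehicle), from 5597 to 988.5 CPM in OV2008 (0.177) and from 1611 to 2696 CPM in SKOV3 (1.67). In the resistant lines it went from 234.5 to 144.4 CPM in HeyA8-MDR (0.616), from 1420 to 1089 CPM in SKOV3-TR (0.767) and from 2114 to 1052 CPM in C13 (0.498). SLC7A5 was therefore lower in 5 of 6 lines, SKOV3 being the exception, and the line that held most of it with vehicle, OV2008, came down to a level near that of C13 and SKOV3-TR. SLC1A5, SLC7A5, SLC3A2 and SLC7A1 were lower in 5 or more of 6 lines, as were 16.3% of all genes. In the fit over all lines the log2 difference of SLC7A5 was -1.11 ± 0.392 (SE, unadjusted p = 0.015, adjusted p = 0.219 with edgeR). The sign-flip test over lines gave p = 0.125 (exact, two-sided). Without HeyA8 the log2 difference was -0.76 ± 0.339 (SE, unadjusted p = 0.0447), and without SKOV3 it was -1.48 ± 0.332 (SE, unadjusted p = 7.33e-04). The pseudogene SLC7A5P1, which resembles part of SLC7A5, held between 4 and 47 counts per library and SLC7A5P2 held 0, so few reads were assigned to these copies.

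SLC3A2, the shared heavy chain, was lower mainly in the OV2008 pair. It went from 1570 to 450.9 CPM in OV2008 (0.287 of vehicle) and from 1029 to 650.5 CPM in C13 (0.632). It went from 479 to 358.9 CPM in SKOV3-TR and from 610.7 to 844.5 CPM in SKOV3. In HeyA8 (296.6 and 264.7 CPM) and HeyA8-MDR (505.6 and 477.1 CPM) vehicle and QC lay close together. In the HeyA8 libraries the heavy chain did not follow its light chain: the ratio of SLC7A5 to SLC3A2, per kilobase, went from 0.956 to 0.148. Whether HeyA8-MDR RNA in the HeyA8 library with QC had a part in this ratio was not tested. In the other lines the ratio went from 1.48 to 0.907 in OV2008, from 0.85 to 0.669 in C13 and from 0.192 to 0.125 in HeyA8-MDR, and stood at 1.09 and 1.32 in SKOV3 and at 1.23 and 1.26 in SKOV3-TR. Over all lines the log2 difference of SLC3A2 was -0.43 ± 0.229 (SE, unadjusted p = 0.0822, adjusted p = 0.387 with edgeR). It was -0.49 without HeyA8 and -0.17 without OV2008. Without SKOV3, the line in which SLC3A2 was higher with QC, it was called, at -0.62 (unadjusted p = 0.0153 with edgeR).

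SLC7A11, the cystine-importing light chain, differed in direction between lines. It went from 136 to 19.1 CPM in HeyA8 (0.141 of vehicle) and from 111.5 to 48.8 CPM in SKOV3-TR (0.438). It went from 7.01 to 17.3 CPM in HeyA8-MDR (2.47), from a vehicle level of 135 counts. In SKOV3 (633.8 and 538.7 CPM), OV2008 (99.7 and 117.8 CPM) and C13 (235 and 249.2 CPM) the level with QC was 0.85, 1.18 and 1.06 of vehicle. HeyA8 and HeyA8-MDR thus stood far apart with vehicle (136 and 7.01 CPM) and close together with QC (19.1 and 17.3 CPM). The HeyA8 value with QC lay between the vehicle levels of HeyA8 and HeyA8-MDR, as it did for SLC38A1 and SLC38A2 but not for the other 5 transporters, and the part of the library in these values was not tested. Over all lines the log2 difference was -0.41 ± 0.394 (SE, unadjusted p = 0.313, adjusted p = 0.656 with edgeR), and without HeyA8 it was 0.010.

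SLC7A1, the arginine and lysine carrier, was lower in 5 of 6 lines. It went from 564.4 to 294 CPM in HeyA8, from 483.8 to 241.9 CPM in OV2008 and from 328.3 to 240.1 CPM in HeyA8-MDR. It went from 211.3 to 163.8 CPM in SKOV3-TR, from 189.5 to 156.1 CPM in C13 and from 201.5 to 255.7 CPM in SKOV3. The 2 lines with most SLC7A1 came down most, and with QC the 6 lines lay closer together, at 225.3 ± 54.2 CPM (SD, n = 6) against 329.8 ± 160.6 CPM with vehicle. The same single vehicle library enters both the ranking of a line and its difference, and its part in this pattern was not tested. The log2 difference over all lines was -0.45 ± 0.165 (SE, unadjusted p = 0.0177, adjusted p = 0.23 with edgeR), and it missed the threshold without HeyA8 (-0.35, unadjusted p = 0.061) and without OV2008 (-0.34, unadjusted p = 0.0655). The line differences of SLC7A1 followed those of SLC7A5 most closely among the pairs with SLC7A5 (Pearson's r = 0.954, Spearman's rho = 0.771 over 6 lines, a description without a test since the same libraries enter both).

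SLC38A1 and SLC38A2, the sodium-coupled glutamine carriers, had no common direction with QC. SLC38A2 went from 464.6 to 322.3 CPM in HeyA8 and from 595.8 to 442.7 CPM in SKOV3, and stood at 179.3 and 178.8 CPM in HeyA8-MDR. It went from 264.7 to 310 CPM in SKOV3-TR, from 581.4 to 777.7 CPM in OV2008 and from 249.9 to 363.3 CPM in C13. Both lines of the OV2008 pair were thus higher with QC. SLC38A1 went from 748.1 to 583 CPM in HeyA8 and from 89.9 to 59.6 CPM in SKOV3-TR, and from 315.3 to 466.2 CPM in HeyA8-MDR. It stood at 666.9 and 720.4 CPM in SKOV3, at 536.5 and 651.7 CPM in OV2008 and at 283.4 and 375.3 CPM in C13. Over all lines the log2 differences were 0.038 ± 0.155 for SLC38A2 and 0.071 ± 0.157 for SLC38A1 (SE), with unadjusted p = 0.808 and 0.661 and adjusted p = 0.933 and 0.868 (edgeR). Without HeyA8 they were 0.15 and 0.16.

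**Figure D2:**
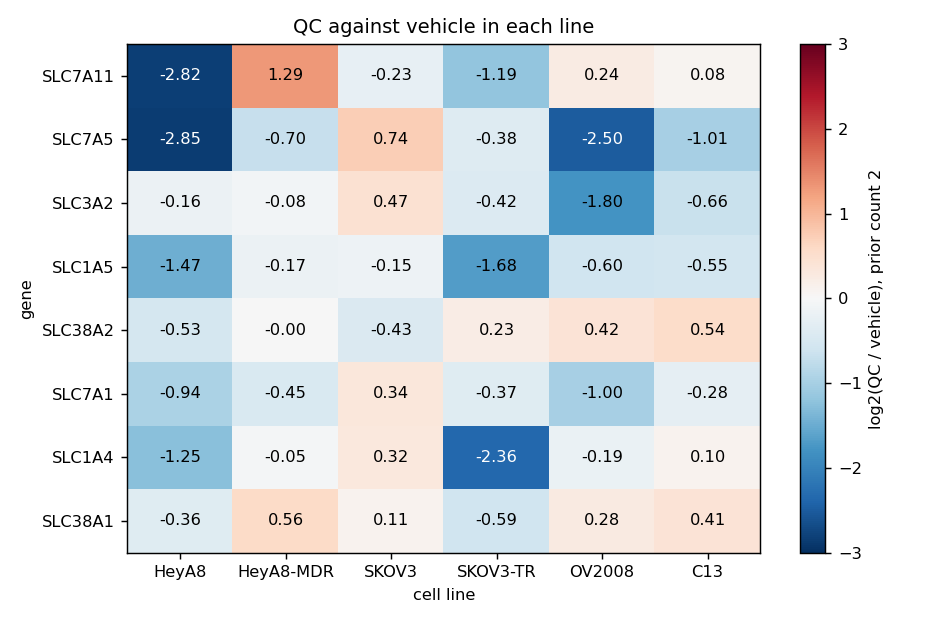
log2 ratio of QC to vehicle for each transporter (rows) in each line (columns), from TMM-normalised CPM with a prior count of 2; blue is lower and red is higher with QC, and each cell is 1 pair of libraries. All 8 genes are below 0 in HeyA8, and 5 of 8 are above 0 in SKOV3.

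The response of the transporters differed between lines. The median log2 difference of the 8 genes was -1.09 in HeyA8, where 8 of 8 were lower, and -0.50 in SKOV3-TR, where 7 of 8 were lower. It was -0.40 in OV2008, -0.097 in C13 and -0.068 in HeyA8-MDR, with 5, 4 and 6 of 8 lower. In SKOV3 the median was 0.22 and 3 of 8 were lower. The median of all genes lay between -0.0047 and 0 in each line. The summed CPM of the 8 genes with QC was 0.381 of vehicle in OV2008, 0.529 in HeyA8, 0.695 in C13, 0.727 in SKOV3-TR, 0.964 in HeyA8-MDR and 1.26 in SKOV3.

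The design asks whether the response to QC differed between resistant and sensitive lines. In the sensitive lines 2 of 8 transporters were called lower at an unadjusted p under 0.05, against 3.04% of genes, namely SLC7A5, at a log2 difference of -1.65 ± 0.58, and SLC1A5, at -0.74 ± 0.299 (SE, unadjusted p = 0.0151 and 0.0304, adjusted p = 0.677 and 0.728 with edgeR). In the resistant lines 1 of 8 was called lower, against 2.59% of genes, namely SLC1A5, at -0.80 ± 0.301 (SE, unadjusted p = 0.0219, adjusted p = 0.816 with edgeR). The direct test of the difference between the responses called 0 of 8 transporters in edgeR and 0 in DESeq2, against 1.16% of genes in either direction with edgeR. The widest differences, resistant minus sensitive on the log2 scale, were 0.95 ± 0.756 for SLC7A5 and 0.89 ± 0.77 for SLC7A11 (SE, unadjusted p = 0.231 and 0.268), and that of SLC1A5 was -0.060 ± 0.423 (SE, unadjusted p = 0.89). The difference for SLC7A11 was 0.024 without HeyA8, 0.32 without HeyA8-MDR and 1.54 without OV2008 (unadjusted p = 0.0449), and that for SLC38A2 went from 0.44 to 0.73 without OV2008 (unadjusted p = 0.0336). The SLC7A5 values also turned on single lines. Without SKOV3, the line in which SLC7A5 was higher with QC, the log2 difference in sensitive lines was -2.69 ± 0.271 (SE, adjusted p = 0.00375 with edgeR). The difference between responses was then 1.99 ± 0.332 (SE, unadjusted p = 4.38e-05, adjusted p = 0.292 with edgeR). Without HeyA8 the 2 values were -0.88 (unadjusted p = 0.156) and 0.19, and without OV2008 -1.05 (unadjusted p = 0.109) and 0.36. Each of these fits holds 2 sensitive lines. SLC1A5 missed the threshold in sensitive lines without HeyA8 (-0.38, unadjusted p = 0.25) and in resistant lines without SKOV3-TR (-0.35, unadjusted p = 0.269).

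Before any drug, the resistant lines held less of the sodium-coupled carriers than their sensitive partners. SLC38A2 lay between 464.6 and 595.8 CPM in the 3 sensitive lines and between 179.3 and 264.7 CPM in the 3 resistant lines, so the groups did not overlap. Its level in the resistant line was 0.386 of the partner's in the HeyA8 pair, 0.444 in the SKOV3 pair and 0.43 in the OV2008 pair. The ratio was thus nearly the same in each pair. For SLC38A1 the resistant lines held 0.421, 0.135 and 0.528 of the partner's level in the same order, and the groups did not overlap either (536.5 to 748.1 CPM against 89.9 to 315.3 CPM). SLC1A4 lay between 49.7 and 62.0 CPM in sensitive lines and between 20.8 and 43.7 CPM in resistant lines. These 3 of 8 genes had all resistant lines below all sensitive lines, as had 1.71% of the 16091 genes tested between vehicle libraries. With SLC7A5 (0.342, 0.882 and 0.378 of the partner), 4 of 8 genes were lower in the resistant line of 3 of 3 pairs, as were 12.7% of genes.

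In the fit of the 6 vehicle libraries with a term for each pair, 3 of 8 transporters were called lower in resistant lines at an unadjusted p under 0.05, against 1.87% of genes. SLC38A2 had a log2 difference of -1.24 ± 0.251, SLC38A1 of -1.66 ± 0.45 and SLC7A5 of -1.04 ± 0.371 (SE, unadjusted p = 0.00298, 0.0112 and 0.0326), all with an adjusted p of 0.975 in edgeR on 2 residual degrees of freedom. SLC38A2 and SLC38A1 kept an unadjusted p under 0.05 without HeyA8 (-1.19 and -1.90). SLC7A5 missed it without either line of the HeyA8 pair or of the OV2008 pair (-0.84 to -0.79). With a term for each pair, leaving out a line also takes its partner out of the comparison. Each of these values therefore rests on 2 pairs. In that comparison 0 of 16091 genes had an adjusted p under 0.05 with edgeR and 606 had an unadjusted p under 0.05. DESeq2 gave 41 genes at an adjusted p under 0.05, SLC38A2 among them (adjusted p = 0.025). All 8 fitted differences were below 0, with a median of -0.90 against 0.011 over all genes. SLC7A11 differed most between pairs: the resistant line held 0.0516 of its partner's level in the HeyA8 pair, 0.176 in the SKOV3 pair and 2.36 in the OV2008 pair. SLC3A2 stood at 1.70, 0.784 and 0.656, SLC1A5 at 0.547, 1.58 and 0.574 and SLC7A1 at 0.582, 1.05 and 0.392.

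**Figure D3:**
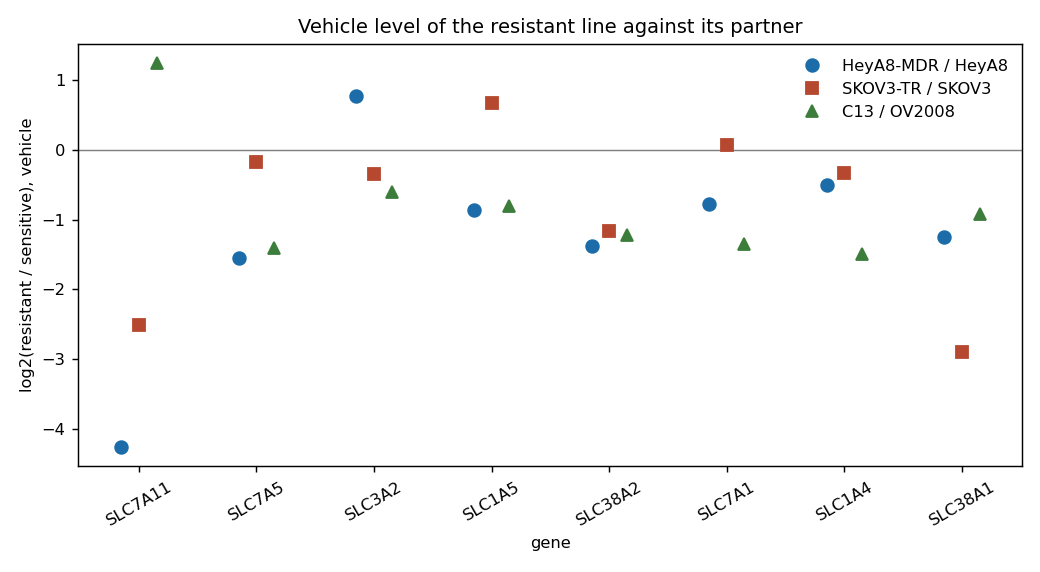
log2 ratio of the resistant to the sensitive line with vehicle for each transporter, with 1 point for each isogenic pair. The 3 points of SLC38A2 lie together between -1.37 and -1.17, whereas those of SLC7A11 spread from -4.26 to 1.24.

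Other amino acid carriers were read from lists written from general knowledge, but with earlier results of these data known. Their counts are a description and not independent support. The counts of each list stand against the 7.18% of all genes called lower and 7.99% called higher over all lines. Without HeyA8 these shares were 5.41% called lower and 6.62% called higher. Of 23 further plasma membrane amino acid transporters, 16 passed the filter, 0 were called lower with QC over all lines and 1 was called higher. The median log2 difference of these carriers was -0.15, and without HeyA8, with 17 tested, 0 were called lower and 1 higher. The gene called higher was SLC7A7, a light chain that exports basic amino acids, at a log2 difference of 1.03 ± 0.343 (SE, unadjusted p = 0.0105), higher in 6 of 6 lines from at most 1.91 CPM with vehicle. Among 10 lysosomal transporters tested, 2 were called lower: SLC38A7, a lysosomal glutamine exporter, at -0.37, and SLC15A4, a histidine and peptide carrier, at -0.34. Both were called lower with all lines and neither without HeyA8.

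ATF4 mRNA was at a log2 difference of -0.39 ± 0.156 over all lines (SE, unadjusted p = 0.0288, adjusted p = 0.271 with edgeR). It was -0.92 in HeyA8, -0.63 in SKOV3-TR, -0.60 in OV2008 and -0.45 in C13, and 0.26 in HeyA8-MDR and 0.028 in SKOV3. The lines with lower ATF4 had the lower medians of the transporters, but C13 (-0.097) and HeyA8-MDR (-0.068) lay close together. By number the order was the reverse, with 4 of 8 transporters lower in C13 and 6 of 8 in HeyA8-MDR. A link between ATF4 and the transporters was not tested. ATF4 is controlled mainly at translation, which was not measured. Of 35 genes of the ATF4 amino acid response, leaving out the transporters, 16 were called lower and 2 higher, with a median of -0.38. Without HeyA8 9 were called lower and 2 higher. PHGDH, the entry enzyme of serine synthesis, was at -1.01 ± 0.209 (SE, unadjusted p = 3.81e-04) and lower in 6 of 6 lines. PYCR1, an enzyme of proline synthesis, was at -0.71, and ASNS, asparagine synthetase, at -0.76. The study picked PHGDH and ASNS for qPCR partly by fold change and p-value in this RNA-seq, so their presence in the list is not independent of these data. Of 10 aminoacyl-tRNA synthetases in the list 5 were called lower and 0 higher, between -0.65 and -0.065, and without HeyA8 2 were called lower. The 2 genes called higher were stress transcription factors, ATF3 at 1.47 ± 0.36 (SE, unadjusted p = 0.00142) and DDIT3 at 0.58 ± 0.195 (SE, unadjusted p = 0.0113), so the list did not move in a single direction. Of the 8 stress kinases and regulators of ATF4, ATF4 itself was called lower and PPP1R15A, a phosphatase subunit that reverses the stress signal, higher, at 0.64, and without HeyA8 0 were called lower and 1 higher. EIF2AK3, an endoplasmic reticulum stress kinase, was at 0.27 (unadjusted p = 0.0893).

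**Figure D4:**
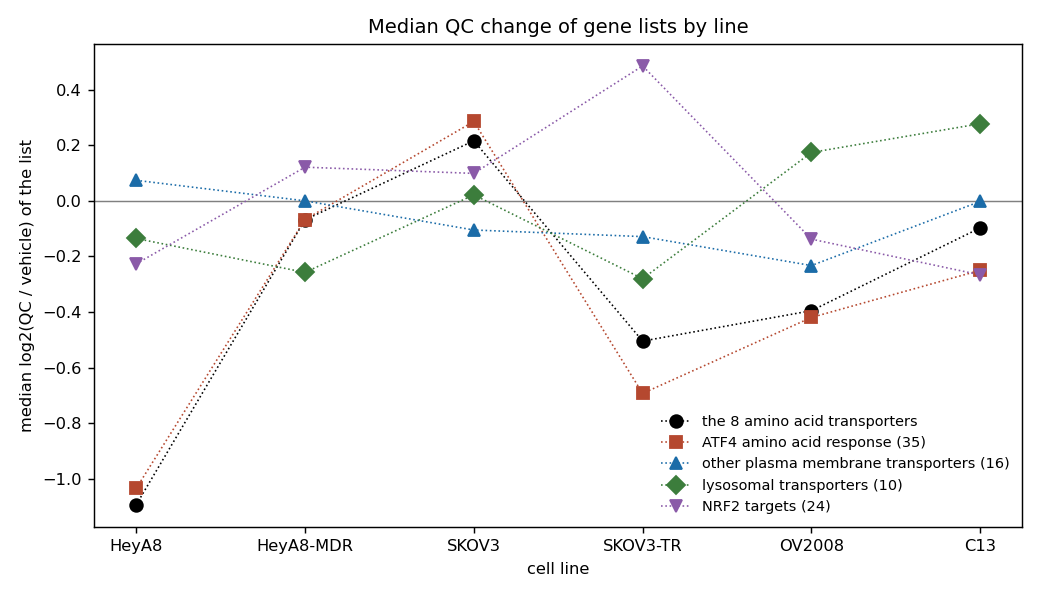
Median log2 ratio of QC to vehicle in each line for the 8 transporters and for gene lists, with the number of genes tested in brackets; dotted lines only join points of a list. The transporters and the ATF4 amino acid response are lowest in HeyA8, at -1.09 and -1.03, and above 0 in SKOV3, at 0.22 and 0.29.

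Genes tied to cystine and glutathione were called lower in part. Of 11 genes of glutathione synthesis and cystine use that were tested, 3 were called lower and 0 higher: CBS, which makes cystathionine, at -1.06, OPLAH, which recycles oxoproline, at -0.85, and GCLC, the catalytic subunit of the first step of glutathione synthesis, at -0.43. Without HeyA8 2 were called lower. CBS held 4.21 CPM or less with vehicle, a low level. Of 24 NRF2 targets 3 were called lower and 1 higher, with a median of -0.017, and without HeyA8 1 was called lower and 1 higher, with a median of 0.081. With all lines the gene called higher was AKR1B10, an aldo-keto reductase, at 0.91, and SLC48A1, a heme transporter, was among the lower ones at -0.45. AKR1B10 ranged from 0 to 57.5 CPM between lines with vehicle. NFE2L2, the gene of NRF2, was at 0.075 (unadjusted p = 0.625), and KEAP1, its inhibitor, at -0.41 ± 0.114 (SE, unadjusted p = 0.00355) and lower in 6 of 6 lines. Of 30 genes of amino acid sensing for mTORC1, the growth kinase complex that responds to leucine and arginine, 4 were called lower, DEPDC5 among them at -0.42, and 3 higher, among them RRAGC at 0.43 and SAMTOR, listed under its symbol BMT2, at 0.59. Without HeyA8 5 were called lower and 3 higher. MYC was at -0.26 (unadjusted p = 0.0659). MYCN did not pass the filter. Of the 6 single regulators tested, ATF4 and KEAP1 were called lower and 0 higher, and without HeyA8 1 was called lower.

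Among the 133 list genes compared, those whose line differences were most like the median of the 8 transporters were MARS1 (Pearson's r = 0.994), YARS1 (0.98), IARS1 (0.965), SLC15A4 (0.945) and SARS1 (0.938), each with a Spearman's rho of 0.943 over 6 lines. The synthetases MARS1, YARS1, IARS1 and SARS1 charge tRNA with methionine, tyrosine, isoleucine and serine. These values describe the same 12 libraries and carry no test, and HeyA8 is the lowest point of each.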

How the data were processed

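Polyadenylated RNA libraries (TruSeq) were sequenced by the authors, and the deposited values are raw counts per gene. The paper names TopHat, hg19 and HTSeq; the submitters' processing notes name STAR 2.7.3a, HTSeq 0.6.1p1 and GRCh38.p13, and the file names no build. The strand setting is not given in the sources used here. Of 60669 identifiers 58623 matched a symbol. Positions and promoter windows are those of RefSeq on GRCh38.p14.

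Fits were made with edgeR 4.0.16 (limma 3.58.1, R 4.3.3), using filterByExpr over the 4 groups, TMM and the quasi-likelihood test, two-sided, with Benjamini-Hochberg adjustment over all genes. The QC fits held the cell line as block. The pairing comes from the shared line, whose 2 libraries moved together about their group means (correlation across genes 0.893 to 0.929). The vehicle fit held the isogenic pair as block. "Called" means an unadjusted p under 0.05, the threshold the paper names. Line differences are log2 ratios with a prior count of 2. The check of the HeyA8 library used genes at 5 CPM or more in the higher of both vehicle libraries, with 0.5 CPM added before log2. DESeq2 1.42.0, other size factors, other filters, no block, scaling to RPLP0 and leaving out each line were alternatives. Plots were drawn with matplotlib 3.10.9.

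The transporters and the gene lists were chosen with earlier results of these data known. Named genes are the 8 transporters, the 3 genes of each of 8 lists with the smallest p over all lines, the genes ATF4, DDIT3, ASNS, NFE2L2 and MYC, and the 5 genes most like the transporters. A result that this rule names is not reported here. Some lists share genes (GCLC, for example). SLC7A5P1 and SLC7A5P2 were added after their counts were seen. P-values of the sign-flip tests measure the spread between lines. Those of edgeR rest on a spread shared by all lines of a fit and moderated over genes. A p-value or SE for the sensitive lines thus also draws on the resistant lines, and the reverse, and can understate the spread of its 3 lines. SLC7A5, for example, had a SD of 1.98 over the 3 sensitive lines and a fitted SE of 0.58. The fit over all lines, the test of the difference between responses and the sign-flip tests take isogenic partners as independent.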

Additional observations from a re-analysis of the deposited data

Results flagged for a closer look

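ATF3, a stress transcription factor of the ATF4 amino acid response list, differed between the groups in its response to QC. The log2 difference, resistant minus sensitive, was -1.63 ± 0.539 (SE, unadjusted p = 0.011, adjusted p = 0.9998 with edgeR). The line values were 2.90 in HeyA8, 1.503 in SKOV3, 2.41 in OV2008, 1.504 in HeyA8-MDR and 1.11 in C13, and -0.69 in SKOV3-TR, the single line in which ATF3 was lower. It was named as 1 of the genes with the smallest p of its list, and the value fails the adjustment over all genes.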

How the results depend on the processing

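The fits rest on 3 lines a group and 2 to 5 residual degrees of freedom, and each transporter held 135 counts or more in each library. Without the block (no replicate block) 0 transporters were called in sensitive lines, in resistant lines or over all lines. SLC7A11 in resistant lines then reversed to -0.16, a value with no call. With no filter 5 were called in sensitive lines, 4 in resistant lines, 2 in the difference, 6 over all lines and 5 between vehicle libraries. Over all lines 4 of 8 then had an adjusted p under 0.05. Calls rose over all genes too with no filter: over all lines 3638 genes had an unadjusted p under 0.05, against 2840 with the filter. At an adjusted p under 0.05 there were 791 genes, against 0, so these calls add no support for the transporters. SLC38A1 in sensitive lines turned to -0.0023 with DESeq2 and to -0.0024 with its size factors. The cause of these moves was not tested. Leaving out each line gave 0 to 4 calls in sensitive lines, 0 to 2 in resistant lines, 0 to 2 in the difference, 2 to 5 over all lines and 2 to 5 between vehicle libraries, while the counts over all genes at an unadjusted p under 0.05 ran from 808 to 2012, 416 to 1376, 187 to 540, 2033 to 3103 and 632 to 759 in the same order. Log2 differences that crossed 0 without a line were, in sensitive lines, SLC3A2 (-0.997 to 0.16), SLC1A4 (-0.73 to 0.062) and SLC38A1 (-0.12 to 0.19). In resistant lines they were SLC7A11 (-0.57 to 0.67), SLC1A4 (-1.19 to 0.040) and SLC38A1 (-0.11 to 0.50). In the difference they were SLC3A2 (-0.54 to 0.61), SLC1A5 (-0.42 to 0.40), SLC7A1 (-0.067 to 0.62), SLC1A4 (-0.82 to 0.42) and SLC38A1 (-0.11 to 0.50). Over all lines they were SLC7A11 (-0.75 to 0.010), SLC38A2 (-0.074 to 0.15) and SLC38A1 (-0.042 to 0.20), and between vehicle libraries SLC3A2 (-0.48 to 0.24). None of these had an unadjusted p under 0.05 with all lines.

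Over all genes, the count at an unadjusted p under 0.05 was 30, 23, 6 and 108 without the block in sensitive lines, resistant lines, the difference and all lines, and 104 between vehicle libraries. With no filter it was 1918 in sensitive lines, 1637 in resistant lines, 501 in the difference, 3638 over all lines and 1583 between vehicle libraries. DESeq2 gave 1058 between vehicle libraries, and at least 10 counts in every library gave 120 in the difference. At an adjusted p under 0.05 DESeq2 called 31 genes in sensitive lines, 0 in resistant lines, 1 in the difference, 518 over all lines and 41 between vehicle libraries, and no filter called 195, 35, 5, 791 and 146. Scaling to RPLP0 moved the median of all genes by 0.29 in sensitive lines, 0.079 in resistant lines and 0.19 over all lines on the log2 scale, and by -0.41 between vehicle libraries. Under that scaling the median of the transporters, averaged over lines, was -0.14 in place of -0.32, and the mean of SLC38A2 in sensitive lines was 0.096. SLC7A1 was then lower in 4 lines, SLC1A4 in 3 and SLC7A11 in 2, in place of 5, 4 and 3. Of 240 fitted log2 differences of the transporters under other settings, 214 kept their direction and their side of the threshold, and of 240 with a line left out 180 did. Part of the latter could hardly move, since leaving out a resistant line leaves the effect in sensitive lines nearly as it was, and the reverse. SLC7A5 in sensitive lines, for example, was at -1.65 with all lines and -1.66 without HeyA8-MDR.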
